A study of Homo sapiens with 16 samples.

Results

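A set of 9 genes of unrelated function that climbed over most of a 45 h treatment with a HER2 kinase inhibitor was examined in SUM-225 cells: C9orf111, BCAS1, VSIG2, CMKOR1, FMO1, GLYATL2, SCIN, C18orf1 and EYA2. They were selected on their measured values, as genes with a large rise between 0 h and 45 h, and all probes with their symbols were taken, which gave 9 genes of 18631 and 13 probes of 24526. EYA2 had 5 probes and each other gene had 1. The size of the rise is therefore a description and was not tested. What the selection did not use was the shape of the rise, and its onset, course and plateau are the subject here.

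SUM-225 is a breast cancer line in which the HER2 gene is amplified and over expressed. Per the labels the cells were grown with serum, insulin and hydrocortisone, whereas the study's methods list this line among those kept in a serum-free medium without insulin, and which of these media was used for the arrays was not settled. The cells received 1 µM CP724,714, a small molecule that blocks the HER2 kinase, and RNA was taken from a separate culture at each of 16 time points, 3 h apart and from 0 h to 45 h. An Illumina bead array was run for every time point, with no replicates. All samples come from the same line and carry the same inhibitor, the 0 h culture is the only one without exposure, and no untreated course was analysed here, so that time in culture cannot be told apart from the inhibitor. For the other lines of the study the methods state a medium change at the start of treatment, and fresh medium cannot be told apart from the inhibitor either where this also held here. RNA came from whole cultures, in which a change in every cell and a change in some of the cells cannot be told apart.

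Signals were corrected for background, quantile normalized and put on a log2 scale, on which 1 unit is a doubling. A probe was called detected on an array when its deposited detection p-value was under 0.05, and the 16110 probes detected on at least 3 arrays were fitted with a smooth course over time. The error of a fitted value is its standard error (SE) over the 16 arrays, since no time point was repeated. Per array between 14110 and 15073 probes were detected, and the median signal intensity lay between 242 and 384. The labelled cell type was checked against its markers, and ERBB2, GRB7, EPCAM, KRT8, KRT18, KRT19 and CDH1 were detected on all 16 arrays. Of the markers of other cells, the leukocyte gene PTPRC was detected on 0 arrays, CD3E on 1, the collagens COL1A1 and COL1A2 on 5 each, and PECAM1 and CD14 on all 16. PECAM1 changed by -0.56 ± 0.23 and CD14 by 0.34 ± 0.14 log2 units over 45 h, and their part in the results was not tested.

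HER2 is a receptor tyrosine kinase whose signal runs through the PI3K and AKT and the RAS and MAP kinase pathways, and in amplified cells it drives growth. When the kinase is blocked, immediate early genes and targets of FOXO transcription factors respond first, and slower programmes follow as signalling proteins and transcription factors turn over. The 9 genes belong to no single pathway. FMO1, GLYATL2 and C9orf111 encode enzymes that act on xenobiotics, acyl groups and phospholipids, CMKOR1, VSIG2 and C18orf1 encode proteins of cell membranes, SCIN encodes an actin regulator, EYA2 a transcriptional coactivator and BCAS1 a protein first found in an amplified region of breast tumours. C9orf111 is an older symbol of PNPLA7, CMKOR1 of ACKR3 and C18orf1 of LDLRAD4 in the RefSeq gene table.

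RefSeq promoters, from 250 bases before to 50 bases after a start site on build GRCh38.p14, were at hand for 4 of the 9 genes, FMO1, GLYATL2, SCIN and C18orf1, with 13 start sites between them. They were searched on both strands for FOXO (GTAAACA), AP-1 (TGACTCA), ETS (CCGGAAGT), CRE (TGACGTCA), E-box (CACGTG), a glucocorticoid half-site (AGAACA), a half-site of nuclear receptors (AGGTCA) and, for core promoter elements, a box of TATA type (with the letters TATAAA), the box named CCAAT and a GC box (GGGCGG). The 4 that follow, 1 picked for each gene, have a TATA match near the start or a match to a factor that the treatment or the medium bears on. Other start sites of C18orf1 with half-site matches are not printed. Capitals mark matches to the FOXO, half-site and TATA letters.
GLYATL2 promoter, chr11:58844655-58844954, minus strand: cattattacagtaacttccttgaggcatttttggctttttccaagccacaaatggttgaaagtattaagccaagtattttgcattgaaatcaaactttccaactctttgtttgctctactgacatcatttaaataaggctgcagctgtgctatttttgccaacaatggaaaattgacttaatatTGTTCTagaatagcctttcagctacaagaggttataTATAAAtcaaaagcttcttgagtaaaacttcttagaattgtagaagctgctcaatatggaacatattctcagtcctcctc
SCIN promoter, chr7:12570470-12570769, plus strand: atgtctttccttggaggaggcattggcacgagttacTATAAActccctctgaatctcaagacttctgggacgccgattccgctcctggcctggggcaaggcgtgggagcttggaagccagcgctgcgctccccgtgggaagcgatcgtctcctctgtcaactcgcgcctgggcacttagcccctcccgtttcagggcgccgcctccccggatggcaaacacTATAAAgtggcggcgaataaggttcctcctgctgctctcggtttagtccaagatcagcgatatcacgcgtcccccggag
FMO1 promoter, chr1:171257673-171257972, plus strand: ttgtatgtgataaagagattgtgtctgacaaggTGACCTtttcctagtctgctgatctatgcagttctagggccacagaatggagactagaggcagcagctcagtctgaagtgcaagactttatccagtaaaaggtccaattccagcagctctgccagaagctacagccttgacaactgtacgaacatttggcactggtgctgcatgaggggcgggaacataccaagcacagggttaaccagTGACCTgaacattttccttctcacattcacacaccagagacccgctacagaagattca
C18orf1 promoter, chr18:13338353-13338652, plus strand: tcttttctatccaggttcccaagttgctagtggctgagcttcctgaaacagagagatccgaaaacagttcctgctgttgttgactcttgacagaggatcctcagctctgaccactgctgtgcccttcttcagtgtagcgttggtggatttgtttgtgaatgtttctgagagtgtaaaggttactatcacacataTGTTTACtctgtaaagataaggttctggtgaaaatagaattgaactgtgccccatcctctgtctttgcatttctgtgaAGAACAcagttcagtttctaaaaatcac

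In GLYATL2 the TATAAA began 30 bases before the start and in SCIN 29 bases before it. A forward TATAAA beginning between 35 and 25 bases before the start was found in 2 of the 13 promoters and in 2.17% of all 35116 promoters. The FOXO letters occurred in 1 of the 13, a start site of C18orf1 where they lie on the reverse strand at -56, and in 3.42% of all promoters. The glucocorticoid half-site occurred in 4 of the 13 (14.8% of all), the nuclear receptor half-site in 2 (13.8%), TATA anywhere in the window in 4 (11.5%), CCAAT in 3 (34.6%) and the GC box in 6 (45.0%). AP-1, ETS, CRE and E-box letters were found in 0 of the 13, against 4.95%, 4.14%, 1.85% and 7.26% of all promoters. No 2 matches overlapped. The GC content of the 13 ranged from 34.0% in GLYATL2 to 79.3% at a start site of C18orf1, with a median of 58.7% over all promoters. Of the 13 start sites 9 belong to C18orf1, so these counts are not counts over independent genes, and a match is only a run of letters.

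Among the enzymes, FMO1, a flavin-containing monooxygenase that oxidises nitrogen and sulphur atoms of drugs and other foreign compounds, was not detected at 0, 3 and 6 h. Its log2 signal was 5.59, 5.92, 6.02 and 7.15 at 0, 3, 6 and 9 h and 7.53, 7.26, 7.76 and 7.70 from 12 h to 21 h. It was 8.53, 8.72, 8.79 and 8.73 from 24 h to 33 h and 8.81, 8.75, 8.69 and 9.04 from 36 h to 45 h. The gene appeared between 6 h and 9 h with its largest step, 1.12 log2 units, and was level from 24 h on, where the last 8 arrays covered a narrow band. The 45 h signal was at least 7.94-fold above the 0 h signal, a lower bound set by the dimmest detected probe at 0 h.

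GLYATL2, which belongs to the glycine N-acyltransferases that join acyl groups to glycine, was the brightest of the 9 genes. Its log2 signal was 11.22, 11.19, 11.33 and 11.68 from 0 h to 9 h and 12.88, 13.23, 13.92 and 14.09 from 12 h to 21 h. It was 12.97, 13.38, 13.36 and 13.76 from 24 h to 33 h and 14.28, 14.36, 14.38 and 14.24 from 36 h to 45 h. The gene was thus flat for 6 h, rose steeply to 21 h, dropped by 1.11 log2 units at 24 h and climbed back to a second, level maximum. Among all 16110 tested probes, 89 fell at least as far between 21 h and 24 h, GLYATL2 included. Of the 17 probes with a fitted rise of at least 3 log2 units, GLYATL2 was the 1 that fell by 1 log2 unit or more at that step. The brightest GLYATL2 signal was 22483, which was 31.3% of the brightest probe on its array, so the maxima do not sit at the ceiling of the scanner. The 45 h signal was 8.15-fold the 0 h signal.

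C9orf111 encodes a lysophospholipase of the patatin-like family that removes a fatty acid from lysophosphatidylcholine. The arrays gave log2 values of 6.88, 6.19, 6.97 and 7.30 from 0 h to 9 h and 8.25, 8.45, 8.50 and 8.93 from 12 h to 21 h. It was 9.61, 9.41, 9.46 and 10.25 from 24 h to 33 h and 10.36, 10.21, 10.32 and 10.67 from 36 h to 45 h. With background correction it had the largest fitted rise of the 9, 4.33 ± 0.23 log2 units over 45 h. It went up at 12 of the 15 steps. It fell by 0.69 at 3 h, and its largest step, 0.95, lay between 9 h and 12 h. The 45 h signal was 13.8-fold the 0 h signal.

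**Figure D1:**
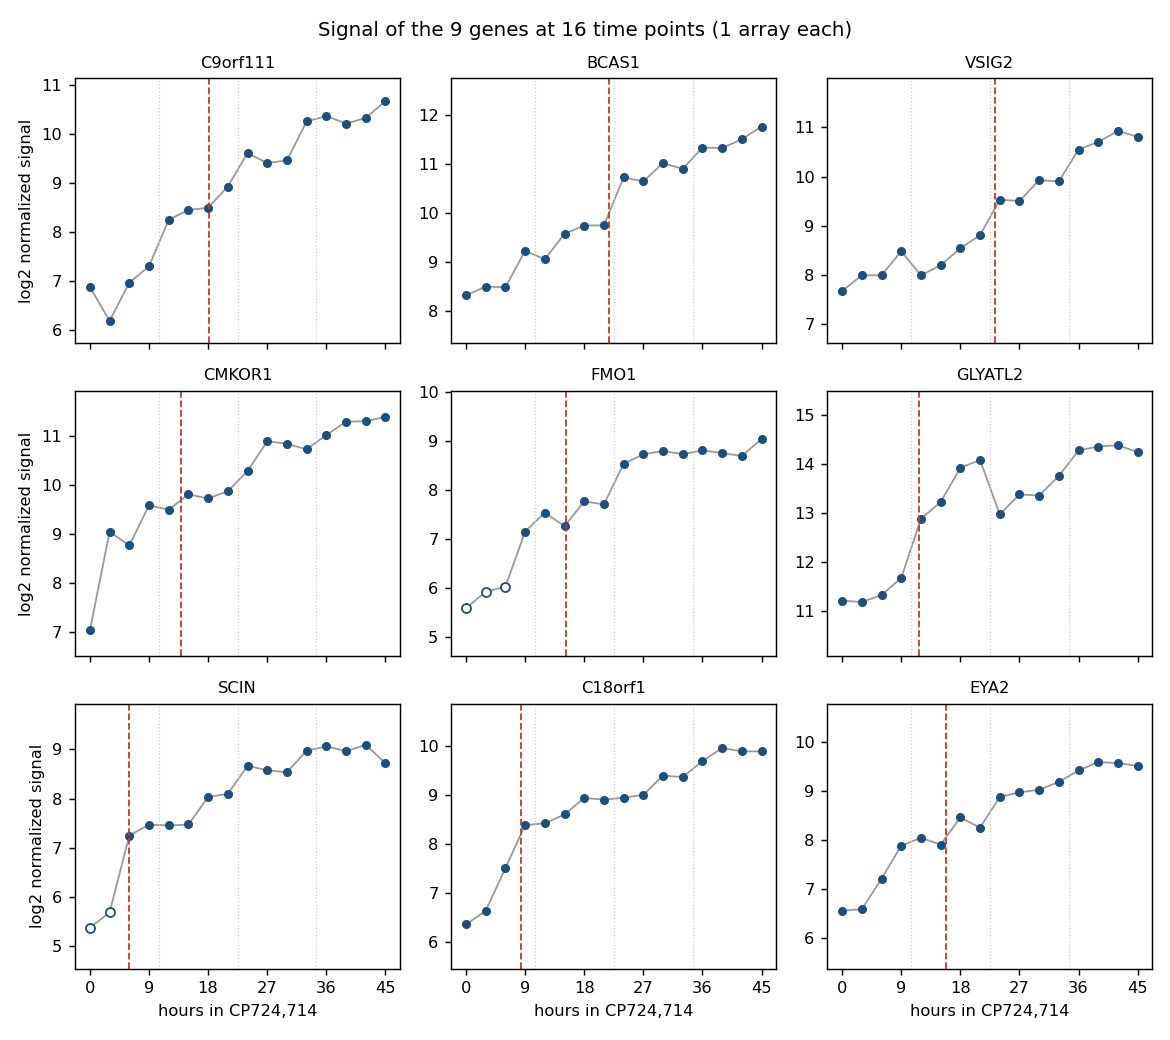
Log2 normalized signal (vertical axis) against hours in CP724,714 (horizontal axis) for the brightest probe of each gene, 1 array per point, each panel spanning the same height. Open circles are arrays on which the probe was not detected, dotted lines separate sets of 4 consecutive arrays, and the red dashed line is the midpoint time, which runs from 5.94 h for SCIN, not detected on its first 2 arrays, to 23.2 h for VSIG2.

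Among the membrane proteins, CMKOR1 is an atypical chemokine receptor that binds CXCL12 and CXCL11 and clears them from the surroundings. The receptor's log2 signal was 7.03, 9.04, 8.77 and 9.58 from 0 h to 9 h and 9.49, 9.81, 9.72 and 9.87 from 12 h to 21 h. It was 10.28, 10.89, 10.84 and 10.72 from 24 h to 33 h and 11.01, 11.29, 11.30 and 11.38 from 36 h to 45 h. It was the earliest to move: its step of 2.01 log2 units from 0 h to 3 h was the largest step of any of the 9 genes, and 7 of the 16110 tested probes, this one included, rose at least as far in those hours. Those 7 probes also included 2 of BMF, a pro-apoptotic BCL2 family member, 1 of CYP1A1, and a second probe of the same receptor, listed under the symbol CXCR7.

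The CXCR7 probe is another probe of the same gene on the same arrays. It was not detected at 0 h, where it read 5.33, so the size of its first step is not known, and it read 7.40 at 3 h and 9.86 at 45 h. Its fitted rise was 3.31 ± 0.25 log2 units against 3.37 ± 0.25 for the CMKOR1 probe, and the courses of both probes had a Pearson r of 0.99 over the 16 arrays. After the jump CMKOR1 kept rising, from 9.04 at 3 h to 11.38 at 45 h. Between the means of sets of 4 consecutive arrays it gained 1.12, 0.96 and 0.56 log2 units in turn. Its 45 h signal was 20.4-fold the 0 h signal, the largest such ratio of the 9 genes.

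VSIG2 encodes an immunoglobulin-domain membrane protein related to the adhesion protein CXADR. On the log2 scale it stood at 7.67, 7.98, 7.99 and 8.48 from 0 h to 9 h and 7.99, 8.19, 8.54 and 8.81 from 12 h to 21 h. It was 9.53, 9.50, 9.93 and 9.90 from 24 h to 33 h and 10.55, 10.70, 10.93 and 10.81 from 36 h to 45 h. In its measured values VSIG2 was the latest of the 9. The mean of 12 to 21 h stood only 0.35 log2 units above that of 0 to 9 h. Between the later sets 1.33 and 1.03 log2 units were gained. At the 3 steps between sets of 4 arrays VSIG2 changed by -0.49 (at 12 h), 0.72 and 0.65. A shift of whole sets cannot be told apart from time at those steps. Within the 4 sets VSIG2 gained 0.81, 0.82, 0.37 and 0.26. Its 45 h signal was 8.81-fold the 0 h signal.

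C18orf1 encodes a membrane protein that binds SMAD proteins and dampens TGF-beta signalling. Log2 values were 6.36, 6.64, 7.51 and 8.39 from 0 h to 9 h and 8.42, 8.60, 8.94 and 8.90 from 12 h to 21 h. It was 8.95, 9.00, 9.39 and 9.36 from 24 h to 33 h and 9.69, 9.95, 9.89 and 9.89 from 36 h to 45 h. The steep part lay between 3 h and 9 h, after which the gene gained slowly to 39 h. It never fell by more than 0.06 from 1 array to the next, the least of the 9 genes, and its 45 h signal was 11.5-fold the 0 h signal.

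SCIN encodes scinderin, a calcium-dependent protein of the gelsolin family that cuts and caps actin filaments. It was not detected at 0 and 3 h. The log2 signal of SCIN was 5.37, 5.68, 7.24 and 7.47 from 0 h to 9 h and 7.45, 7.47, 8.03 and 8.10 from 12 h to 21 h. It was 8.67, 8.58, 8.53 and 8.97 from 24 h to 33 h and 9.06, 8.96, 9.09 and 8.72 from 36 h to 45 h. The gene became visible in 1 step of 1.56 log2 units between 3 h and 6 h, stood still to 15 h and then climbed to 33 h, and fell by 0.38 from its maximum at 42 h to 45 h. The 45 h signal was at least 6.38-fold above the 0 h signal.

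EYA2 encodes a coactivator of homeobox transcription factors that is also a protein phosphatase. The log2 signal of its brightest probe was 6.57, 6.59, 7.22 and 7.89 from 0 h to 9 h and 8.05, 7.91, 8.46 and 8.26 from 12 h to 21 h. It was 8.88, 8.98, 9.03 and 9.19 from 24 h to 33 h and 9.42, 9.60, 9.57 and 9.52 from 36 h to 45 h. It was flat to 3 h and climbed from there, and its 45 h signal was 7.73-fold the 0 h signal. The 5 EYA2 probes did not behave alike. A second probe, detected on 11 arrays, stayed between 5.77 and 7.08, with a fitted rise of 0.84 ± 0.24 log2 units, and the other 3 were detected on 0 arrays and were not tested. The file does not say which part of the transcript each probe covers, so the probes stand here as separate measurements.

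BCAS1 lies in a region of chromosome 20 that is amplified in some breast cancers, and it is otherwise known as a protein of myelin-forming cells. Its log2 signal was 8.33, 8.50, 8.49 and 9.23 from 0 h to 9 h and 9.06, 9.58, 9.75 and 9.75 from 12 h to 21 h. It was 10.73, 10.65, 11.02 and 10.90 from 24 h to 33 h and 11.34, 11.33, 11.51 and 11.77 from 36 h to 45 h. BCAS1 went up at 10 of the 15 steps, with its largest step of 0.98 between 21 h and 24 h and its maximum on the last array. From 24 h to 33 h it gained 0.17. Its residual SD around the fitted smooth course was 0.20 log2 units, beside a median of 0.19 over all tested probes. The 45 h signal was 10.9-fold the 0 h signal.

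The fitted linear change over 45 h, taken as a description because the selection used it, ran from 3.06 ± 0.16 log2 units for EYA2 to 4.33 ± 0.23 for C9orf111. Between them were BCAS1 (3.63 ± 0.15), VSIG2 (3.52 ± 0.17), CMKOR1 (3.37 ± 0.25), FMO1 (3.36 ± 0.20), GLYATL2 (3.26 ± 0.32), SCIN (3.22 ± 0.22) and C18orf1 (3.19 ± 0.17). Neighbours in this order below C9orf111 differed by less than their SE. All 9 were among the 15 probes with the largest linear rise of the 16110 tested. A linear rise passed the limma test, a moderated linear model adjusted by the Benjamini-Hochberg method at 0.05, for 26.0% of the tested probes and a linear fall for 21.7%. Without background correction the median rise of the 9 genes was 2.72 in place of 3.36 log2 units, and FMO1 stood at 1.75 and SCIN at 1.73, while GLYATL2 kept 3.17. C9orf111 then stood at 2.96, below GLYATL2 and BCAS1 (3.07), so its first place depended on the correction.

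Onset was taken as the first time point from which every later value stood at least 1 log2 unit above 0 h. By this measure CMKOR1 began at 3 h, SCIN and C18orf1 at 6 h, FMO1 and EYA2 at 9 h, C9orf111 and GLYATL2 at 12 h, BCAS1 at 15 h and VSIG2 at 21 h. For SCIN and FMO1 the onset was also the first array on which they were detected. The 12 h onsets fell on the first array of a set of 4, after steps of 0.95 for C9orf111 and 1.21 for GLYATL2. A shift of the whole set cannot be told apart from time there. Measured against the mean of 0 h and 3 h, CMKOR1 came at 9 h and VSIG2 at 24 h, and the other 7 genes kept their onset. By this measure no onset before 6 h is possible, and the jump of CMKOR1 at 3 h is part of its baseline. Its later onset is therefore no check on its early rise.

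The midpoint time is the last crossing of the middle between the mean of the first 2 and the mean of the last 2 arrays on the log2 scale. It was 8.34 h for C18orf1, 11.7 h for GLYATL2, 13.9 h for CMKOR1, 15.8 h for EYA2, 18.1 h for C9orf111, 21.8 h for BCAS1 and 23.2 h for VSIG2. SCIN and FMO1 were not detected on the first 2 arrays, so that their starting level is not known, and the 5.94 h and 15.3 h computed for them carry no rank. Leaving out each array in turn moved SCIN between 5.88 h and 16.1 h, C18orf1 between 8.34 h and 12.985 h, CMKOR1 between 11.9 h and 22.8 h, FMO1 between 9.69 h and 15.9 h and EYA2 between 12.2 h and 17.6 h. BCAS1 stayed between 19.7 h and 22.8 h and VSIG2 between 22.9 h and 25.7 h. Without background correction SCIN came at 15.7 h and C18orf1 at 13.8 h, and with the ends taken from 3 arrays SCIN came at 15.2 h and C18orf1 at 8.95 h. The order of the early and middle genes was therefore not settled by these arrays, while the range of VSIG2 lay just above those of all the other genes. The midpoints of VSIG2 and BCAS1 fell in the step from 21 h to 24 h, where 1 set of 4 consecutive arrays meets the next. That of GLYATL2 fell in the step from 9 h to 12 h, where sets also meet. A shift of a whole set and a rise over time cannot be told apart at these steps, and leaving out single arrays does not separate them. On the linear signal scale, where late increments weigh more, every midpoint came later, from 18.9 h for SCIN to 33.5 h for VSIG2.

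**Figure D2:**
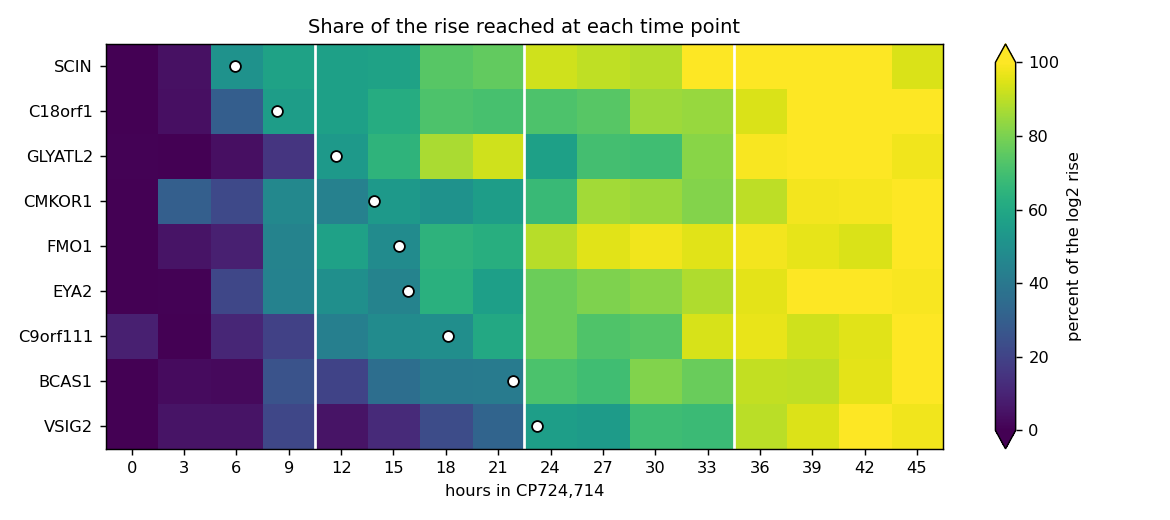
Percent of each gene's log2 rise, from the mean of its first 2 to the mean of its last 2 arrays, reached at each of the 16 time points, with genes ordered by midpoint time (white circles) and white lines between sets of 4 arrays. C18orf1 is past the middle of its rise by 9 h, BCAS1 and VSIG2 only at 24 h, and GLYATL2 drops back at 24 h, while the first values of SCIN and FMO1 were not above background.

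The shape of the courses was tested through the bend, the curved part of the fitted course at the middle of the treatment minus its value at both ends. A bend above 0 means an early rise that levels off and a bend below 0 a late rise, and the bend is orthogonal to the linear change that chose the genes. It was above 0 and passed the test for 7 of the 9 genes, against 10.3% of all tested probes with a called bend above 0 and 8.71% with a called bend below 0. Among the 17 probes with a linear rise of at least 3 log2 units, of which the 9 genes are a part, the share with a called bend above 0 was 82.4%, so that the bend is shared by the strongly rising probes and is not particular to these genes. The median bend was 0.74 for the 9 genes, 0.89 for those 17 probes and 0.01 for all tested probes. The test takes the 16 arrays as independent. The bend was not fitted with the set of 4 consecutive arrays as a factor, so a shift of whole sets can enter it. For GLYATL2 the set of 12 to 21 h was bounded by steps of 1.21 and -1.11 log2 units.

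SCIN had a bend of 1.21 ± 0.20 log2 units (adjusted p = 0.000514) and FMO1 of 1.04 ± 0.18 (adjusted p = 0.000764). Neither gene was detected at 0 h and 3 h, so the size of both bends rests partly on values not above background. C18orf1 had a bend of 0.89 ± 0.15 (adjusted p = 0.000597) and EYA2 of 0.63 ± 0.14 (adjusted p = 0.00521). These 4 calls held with each array left out in turn. GLYATL2 had a bend of 0.91 ± 0.29 (adjusted p = 0.0360), CMKOR1 of 0.74 ± 0.23 (adjusted p = 0.0311) and C9orf111 of 0.66 ± 0.21 (adjusted p = 0.0320), and each of these calls was lost when certain single arrays were left out. For CMKOR1 the bend was 0.19 ± 0.17 (adjusted p = 0.474) without the 0 h array, which holds its early jump. BCAS1 had a bend of 0.25 ± 0.14 (adjusted p = 0.235) and VSIG2 of -0.32 ± 0.16 (adjusted p = 0.157), and neither passed.

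Among the brightest probes of the 9 genes, VSIG2 alone had a bend below 0. The second EYA2 probe had one of -0.41 ± 0.22, opposite in sign to the EYA2 probe above, and it did not pass (adjusted p = 0.209). The differences of VSIG2 from the others were read pair by pair, 36 pairs in all, with no test. The bend of VSIG2 minus that of SCIN was -1.53 ± 0.20 log2 units, minus that of FMO1 -1.36 ± 0.23 and minus that of C18orf1 -1.22 ± 0.19, and the bend of BCAS1 minus that of VSIG2 was 0.57 ± 0.15. SCIN, FMO1 and C18orf1 differed from each other by 0.14 ± 0.24 to 0.31 ± 0.21. The alcohol dehydrogenase genes ADH1C and ADH1A, whose linear rise was the largest of all tested probes, had larger bends than any of the 9, 1.55 ± 0.17 and 1.31 ± 0.18, with midpoints at 8.15 h and 8.26 h.

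The bends of dim genes depended on the background correction, which stretches low signals on the log2 scale. Without it the bend was 0.46 for SCIN (adjusted p = 0.00406), 0.37 for FMO1 (adjusted p = 0.0144), 0.36 for C18orf1 (adjusted p = 0.0163) and 0.87 for GLYATL2 (adjusted p = 0.0404), which all still passed. It was 0.22 for EYA2 (adjusted p = 0.0872), 0.40 for CMKOR1 (adjusted p = 0.0905) and 0.17 for C9orf111 (adjusted p = 0.383), which did not. VSIG2 then had a bend of -0.38 that passed (adjusted p = 0.0258).

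**Figure D3:**
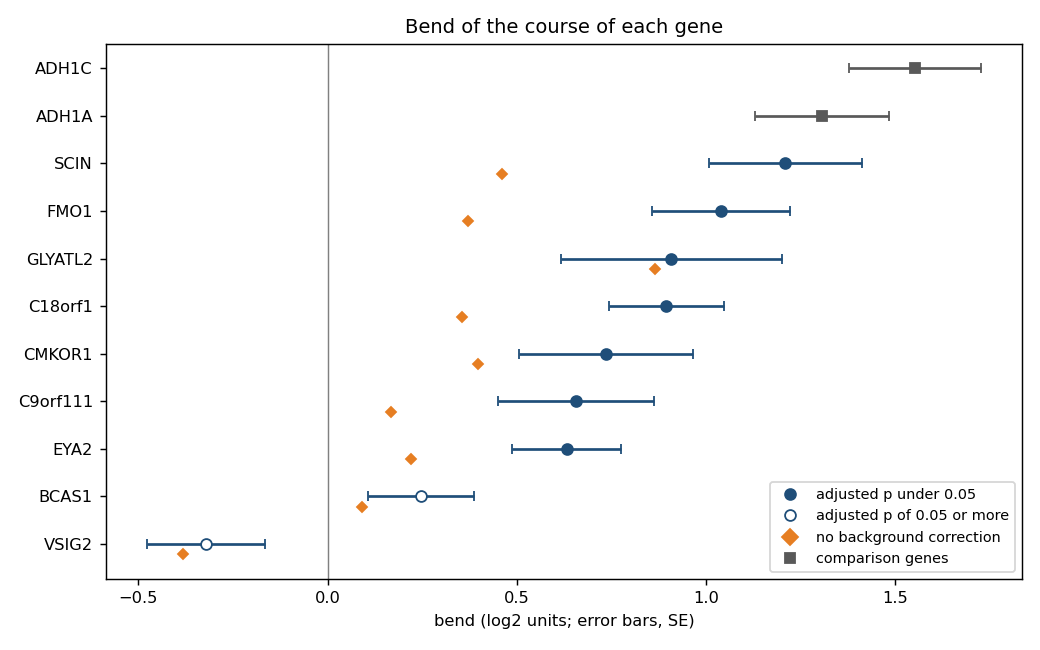
Bend in log2 units (horizontal axis, error bars SE) of the brightest probe of each gene, filled where the adjusted p was under 0.05, with ADH1C and ADH1A for comparison and orange diamonds for the bend without background correction. The 7 genes with a call sit above 0 from 0.63 for EYA2 to 1.21 for SCIN, BCAS1 at 0.25 has no call and VSIG2 lies below 0 at -0.32.

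The plateau was read from sets of 4 consecutive arrays. From the mean of 24 to 33 h to that of 36 to 45 h, FMO1 gained 0.13 log2 units and SCIN 0.27, with SDs of 0.15 and 0.17 within the last set. EYA2 gained 0.51, CMKOR1 0.56, BCAS1 0.66, C18orf1 0.68, C9orf111 0.71, GLYATL2 0.95 and VSIG2 1.03. All 9 genes were higher in the last set than in the one before, and FMO1 and SCIN were closest to level.

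The share of the whole gain from the first to the last set that fell between the first 2 sets was 73.5% for GLYATL2, 56.7% for C18orf1, 52.6% for FMO1, 52.5% for SCIN, 47.7% for C9orf111, 44.9% for EYA2, 42.3% for CMKOR1, 31.5% for BCAS1 and 12.9% for VSIG2. Between 12 to 21 h and 24 to 33 h the share of GLYATL2 was -5.43%, the only loss between sets among the 9. All 4 values of 12 to 21 h lay above all 4 of 0 to 9 h for 5 of the 9 genes (12.5% of tested probes). All 4 values of 36 to 45 h lay above those of 24 to 33 h for 6 of the 9 (6.01% of tested probes). The genes were chosen for rising, so these counts are descriptions.

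Some probes, GLYATL2 among them, moved abruptly where 1 set met the next. No batch is given in the labels, and the sets were seen only in the values. A step of 3 h between neighbouring arrays therefore lay either within a set (12 steps) or between sets (3 steps), and both kinds together make up the change that chose the genes. Per step C9orf111 gained 0.17 log2 units within and 0.58 between sets, FMO1 0.18 and 0.43, BCAS1 0.18 and 0.41, EYA2 0.16 and 0.34, and VSIG2 0.19 and 0.29. For GLYATL2 the gains per step were 0.20 and 0.20 and for SCIN 0.23 and 0.21. CMKOR1 gained more within sets, 0.31 against 0.20, as did C18orf1, 0.26 against 0.13. A shift of whole sets and a change over time cannot be told apart at the 3 steps between them.

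Within sets alone the linear change, scaled to 45 h, had a median of 2.92 log2 units over the 9 genes, against 3.36 over all arrays. By gene it ranged from 2.62 ± 0.81 for EYA2 to 4.09 ± 1.01 for C18orf1, with SEs up to 1.35 for SCIN. C9orf111 stood at 2.68 ± 0.81, below that median. The second EYA2 probe instead had a within-set change of -1.01 ± 1.02.

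**Figure D4:**
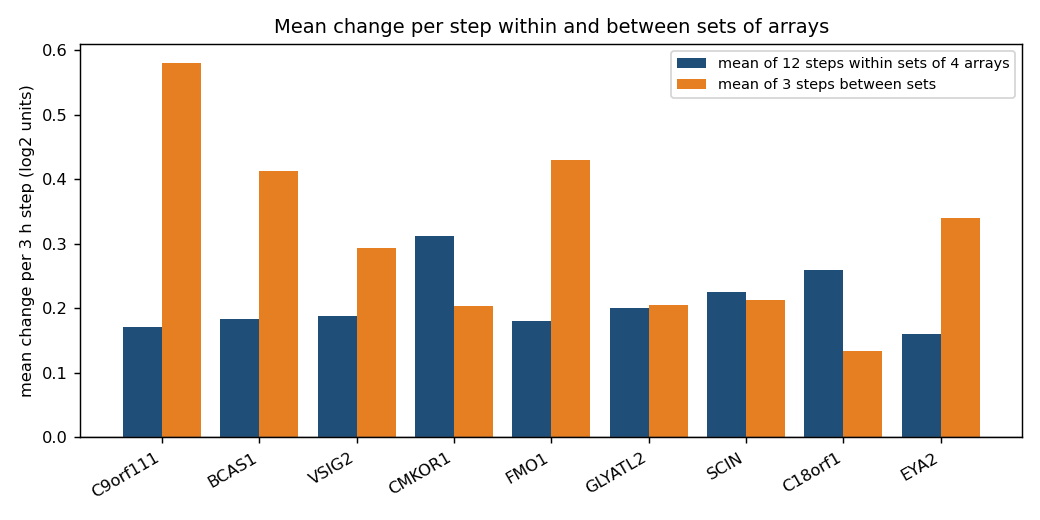
Mean change per 3 h step in log2 units (vertical axis, from 0) over the 12 steps within sets of 4 consecutive arrays (blue) and the 3 steps between sets (orange), for each gene's brightest probe. The orange bar is clearly the higher for C9orf111 (0.58 against 0.17), FMO1, BCAS1, EYA2 and VSIG2, the bars are nearly equal for GLYATL2 and SCIN, and the blue bar is the higher for CMKOR1 and C18orf1.

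All genes rose, so their raw courses resembled each other, with Pearson r between 0.78 and 0.98 over the 36 pairs. After each gene's own straight line was removed, r of the deviations ran from -0.71 for VSIG2 and GLYATL2 to 0.86 for SCIN and EYA2, with a median of 0.38, and 27 of the 36 pairs were above 0. SCIN, C18orf1, EYA2 and FMO1 formed the closest group, with r between 0.66 and 0.86 for each of their pairs. Only a straight line was removed, so a bend that genes share enters r. Each gene of this group had a called bend above 0 and lay below its line at 0 h and 3 h. SCIN and FMO1 were not detected there. These correlations are over 16 arrays that all genes share, so that shifts of whole arrays enter them, and they are given as descriptions.

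For each gene the 3 genes whose deviations were most like its own over the 16 arrays were listed in the same way. For CMKOR1 they were CXCR7 (r = 0.96), the ubiquitin ligase gene FBXO32 (r = 0.96) and MGC17330 (r = 0.92), and FBXO32 had a linear change of 0.86 ± 0.26. For SCIN they were the complement gene CFB (r = 0.95), HSD11B2 (r = 0.94), whose product inactivates cortisol, and EHHADH (r = 0.93), a peroxisomal enzyme of fatty acid oxidation. HSD11B2 had a linear change of 3.02 ± 0.15 and a bend of 0.88 ± 0.14, beside 3.22 and 1.21 for SCIN. EHHADH was also among the 3 for EYA2 (r = 0.93), with KIAA1324L (r = 0.93) and the kinase gene MAP2K5 (r = 0.93).

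For C9orf111 the most alike were the immediate early genes EGR1 (r = 0.90) and FOS (r = 0.87) and UBE3B (r = 0.87), although EGR1 changed by -0.81 ± 0.25 and FOS by -0.24 ± 0.30 log2 units over the course. For FMO1 they were ACBD7, PGM5 and MR1 (r = 0.92, 0.92 and 0.91), of which PGM5 rose by 2.73 ± 0.20 and ACBD7 changed by -0.95 ± 0.33. For GLYATL2 they were SNHG5 (r = 0.94), EMR2 (r = 0.93) and FLJ21687 (r = 0.93), for C18orf1 BAT5 (r = 0.96), OACT2 (r = 0.94) and TP53TG3 (r = 0.94), and for BCAS1 DOCK11 (r = 0.84), PXMP4 (r = 0.83) and IL6ST (r = 0.81). For VSIG2 they were the sterol enzyme gene DHCR7 (r = 0.94), ASAHL (r = 0.93) and ZDHHC24 (r = 0.93), and DHCR7 changed by -0.74 ± 0.15. The measure ignores the linear part of a course, so that a gene with the same bends and dips was listed whether it rose or fell.

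The relatives of each gene, by family or pathway and for BCAS1 by name or place on chromosome 20, were followed to see whether the rise reached beyond the 9. Of 62 listed relatives 40 could be tested, and 19 rose, 2 fell and 19 did not pass the limma test of the linear change, with a median change of 0.45 log2 units against 0.05 for all tested probes. This is 47.5% rising and 5% falling of the 40 genes, each by its brightest probe. The 26.0% and 21.7% given above, like the median of 0.05, are over all tested probes, so the units differ. Counted over every tested probe of the relatives, 22 rose and 6 fell. With the set of 4 arrays as a factor in the limma fit, 0 of the 40 passed and 5 had an unadjusted p under 0.05, 4 of them rising. Among all 16110 tested probes only 68 rises and 77 falls passed in that fit, so the 0 is not particular to the relatives.

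Of the flavin-containing monooxygenases FMO4 and FMO5 could be tested and both rose, by 2.25 ± 0.17 (adjusted p = 2.66e-09) and 2.29 ± 0.24 log2 units (adjusted p = 1.78e-07), and FMO2 was not tested. FMO4 went from a log2 signal of 10.12 at 0 h to 12.29 at 45 h and FMO5 from 6.93 to 8.66. Their change within sets was 1.53 ± 0.68 and 2.02 ± 0.98. These enzymes share much of their coding sequence, and whether a probe of one reads another was not tested.

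In the VSIG and CTX family of adhesion proteins 4 of 6 tested relatives of VSIG2 rose, with the largest changes in the endothelial adhesion gene ESAM (1.81 ± 0.18, adjusted p = 8.34e-08) and in VSIG8 (1.41 ± 0.18, adjusted p = 3.13e-06). Within sets ESAM changed by 1.81 ± 0.61 and VSIG8 by -0.11 ± 0.52. In the list of SMAD signalling 3 of 7 rose, beside the 26.0% of all tested probes. SMAD6, an inhibitor of BMP signalling, did so by 1.46 ± 0.20 (adjusted p = 7.22e-06), with a within-set change of -0.58 ± 0.70. PMEPA1, the closest relative of C18orf1, is on the array as TMEPAI, and its brightest probe rose by 0.75 ± 0.15 (adjusted p = 2.84e-04), with a within-set change of -0.65 ± 0.46. Its 4 probes disagreed, as the dimmest fell by 0.98 on the log2 scale with an SE of 0.24 (adjusted p = 0.00250).

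Of the genes named BCAS and those next to BCAS1 on chromosome 20, 5 of 7 rose, and BCAS4 had the largest change, 1.18 ± 0.12 (adjusted p = 1.71e-07). Its 3 probes disagreed, as another rose by 1.25 ± 0.11 while the dimmest changed by -0.52 ± 0.15 (adjusted p = 0.00674). In the network of EYA genes and their partners 2 of 3 tested genes rose, namely SIX4 and SIX5, homeobox factors, by 0.62 ± 0.12 and 0.45 ± 0.13 log2 units. EYA3 fell by 1.21 ± 0.28 (adjusted p = 0.00148), opposite to EYA2. Both tested patatin-like relatives of C9orf111, PNPLA2 and PNPLA8, rose, by 0.97 ± 0.16 and 0.90 ± 0.17.

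In other families few or no relatives passed. Of the gelsolin family 1 of 7 rose and 1 fell, GSN by 0.80 ± 0.09 and FLII by -0.59 ± 0.10, while SCIN rose by 3.22. The brightest SVIL probe did not pass, but the dimmest did, with a change of -0.91 ± 0.25 (adjusted p = 0.00458). Neither GLYAT nor GLYATL1 passed, with changes of 0.45 ± 0.22 and 0.05 ± 0.27 beside 3.26 for GLYATL2. In the CXCL12 axis 0 of 4 passed by their brightest probes, with changes from -0.26 ± 0.16 for ARRB2 to -0.11 ± 0.11 for ARRB1. A dimmer ARRB2 probe did pass, with a change of -0.98 ± 0.26 (adjusted p = 0.00362). CXCR4, the other receptor of CXCL12, was not tested because it was detected on fewer than 3 arrays.

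**Figure D5:**
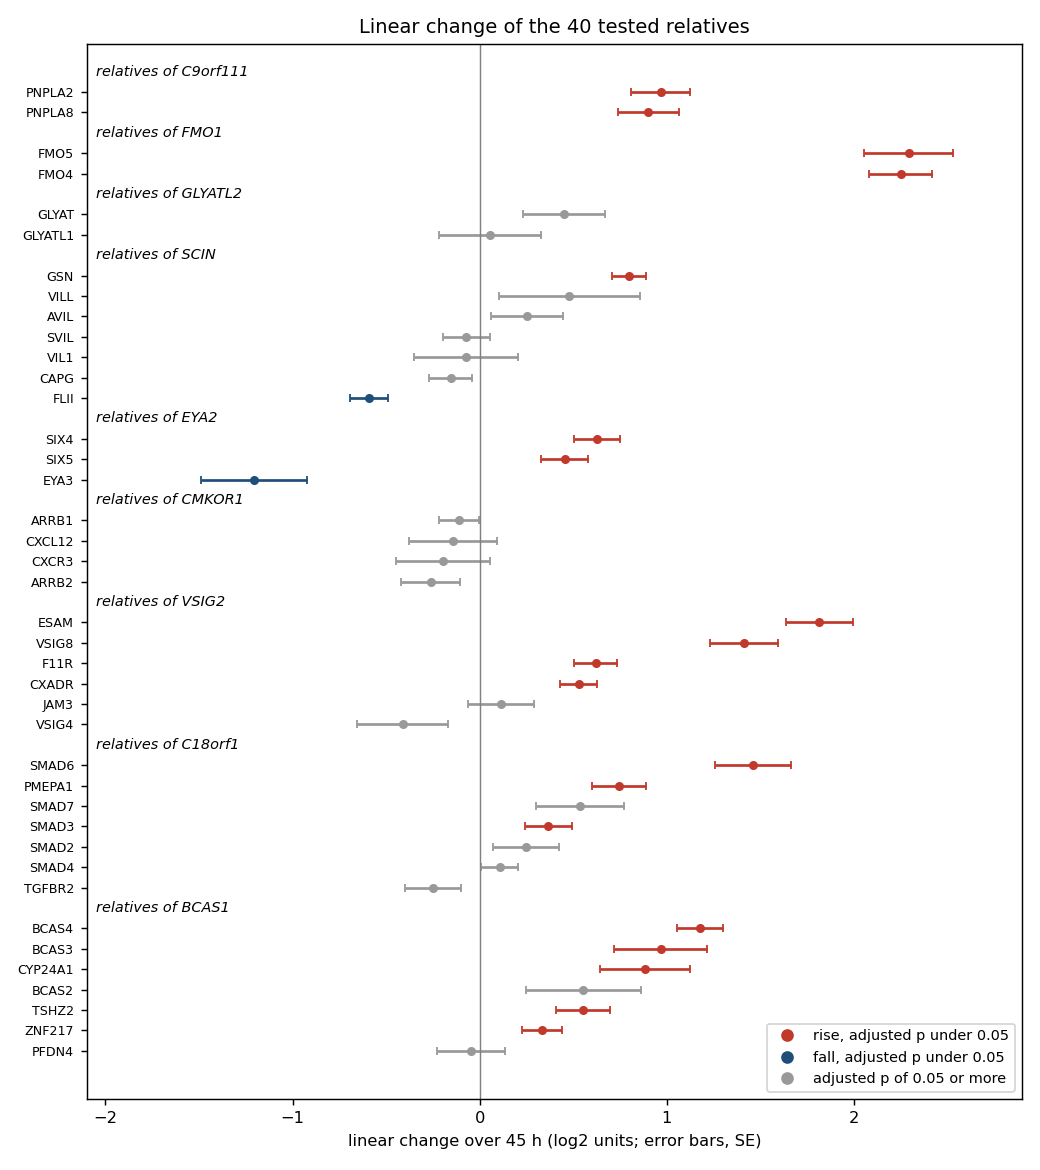
Linear change over 45 h in log2 units (horizontal axis, error bars SE) of the 40 tested relatives, grouped under the gene they are related to, with red for a rise and blue for a fall at an adjusted p under 0.05 and grey otherwise. FMO4 and FMO5 lie furthest to the right, at 2.25 and 2.29, and the 4 genes of the CXCL12 axis, by their brightest probes, all sit just below 0 in grey.

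The genes next to each member on its chromosome, in the order of the RefSeq table, were added after the values were seen. Of 17 such neighbours 14 could be tested, and 5 rose, 1 fell and 8 did not pass. This is 35.7% rising and 7.14% falling with 1 probe per gene, beside 26.0% and 21.7% of all tested probes. FMO4, next to FMO1, rose by 2.25 and ESAM, next to VSIG2, by 1.81, and both are also relatives by family. The other 3 that rose, CYP24A1 and ZNF217 beside BCAS1 and CEP192 beside C18orf1, did so by 0.88 ± 0.24, 0.33 ± 0.11 and 0.35 ± 0.11. CYP24A1 and ZNF217 were also in the list of BCAS1, so the shares of relatives and of neighbours overlap. NELF, next to C9orf111, fell by 0.87 on the log2 scale with an SE of 0.14. The neighbours of GLYATL2 and EYA2 did not pass.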

How the data were processed

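RNA of 16 cultures of SUM-225 cells, harvested at 16 time points and grouped by the time in their labels, was measured on 1 Illumina bead array each. The deposited table gives a linear signal intensity per probe and array, deposited by the authors with no background correction and no normalization, and beside each intensity a detection p-value. The array version and the scanning software were not given for these samples in the sources used here. All columns of values were used.

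Intensities were processed with neqc of limma 3.58.1 in R 4.3.3: normexp background correction (the negative controls being estimated from detection p-values), addition of an offset of 16, which shrinks changes of dim signals, then quantile normalization and log2. Probes detected on 3 or more arrays at p under 0.05 were fitted with a cubic course in orthogonal polynomials (lmFit, eBayes with an intensity trend). The second-order term gave the bend and the first-order term the linear change. Two-sided p-values were adjusted with the Benjamini-Hochberg procedure across 16110 probes, with a threshold of 0.05. The fit was tested on simulated data. The error of a probe comes from deviations around its fitted course and also holds any change that a cubic cannot follow. Harvests were taken to be parallel cultures of 1 experiment, since the methods describe parallel plates for the other lines of the study. The errors therefore do not cover the spread between experiments. Precision is limited by there being 16 arrays.

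Where a gene had several probes, the brightest by mean log2 value stood for it, and every probe of the 9 genes was reported. Also named were the 3 genes most like each of the 9 by Pearson r of the deviations from a straight line, the relatives past the threshold with a change of at least 1 log2 unit, and ADH1C and ADH1A. Other relatives and the chromosome neighbours were named after their values were seen. The 9 genes, the lists of relatives and the tests were chosen with earlier results of these data known. Relatives listed on the array under an older symbol were matched through the RefSeq table, unless that symbol is now another gene's. Some relatives and neighbours are not reported here and were left out of the lists and their counts. A fold change from an array where a probe was not detected is a lower bound. Promoters are from RefSeq on build GRCh38.p14, and the file names no genome build. The probes' own sequences and the proteins were not used here. Python 3.11.15 with matplotlib 3.10.9 drew the figures.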

Additional observations from a re-analysis of the deposited data

How the results depend on the processing

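No paired analysis was possible because there was 1 array for each harvest time. The bend was above 0 and past the threshold for 7 of the 9 genes, for 4 without background correction, and for 4 to 7 when each array was left out in turn, with the lowest count without the 45 h array. It was called for 5 to 7 genes with the offset of 50, median scaling, cyclic loess, both filters, array weights, the other fitted courses and the joint test of curvature. No bend was fitted with the 12 h set as a factor, so its dependence on shifts of whole sets was not tested. FMO1 and SCIN are left out by construction where detection on all 16 arrays is required. The median linear change of the 9 genes was 3.36 log2 units, 2.72 without background correction, 2.92 within the 12 h sets, and 3.13 to 3.55 with single arrays left out. The change of the second EYA2 probe reversed within sets, to -1.01. The median midpoint time was 15.3 h, 20.9 h without background correction, 27.1 h on the linear signal, and 12.2 h to 16.7 h with single arrays left out, lowest without the 15 h array. Of the relatives, 21 passed the test of the linear change (18 to 23 with single arrays left out), 19 rising (16 to 20) and 2 falling (2 to 3). With the 12 h set as a factor these counts were 0, 0 and 0, beside 68 rises and 77 falls among all 16110 tested probes. Falling relatives numbered 4 with array weights and 6 over every tested probe. The causes of these differences were not tested. Detection limits the early part of the FMO1 and SCIN courses, which were not above background on their first arrays.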
